A study of Beta vulgaris with 12 samples.

Results

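The genes described here are those of sugar beet (Beta vulgaris) whose deposited description names an ethylene-responsive transcription factor (ERF) or a dehydration-responsive element-binding protein (DREB). Descriptions that begin with AP2-like, which belong to another branch of the family, were left out. This rule found 61 of the 28320 genes in the table, of which 52 were described as ERF and 9 as DREB. RNA was measured in roots of 4-week-old seedlings of the cultivar KWS0143 grown in Hoagland nutrient solution. The solution of the salt-treated plants (S) held NaCl and Na2SO4 with a Na+ concentration of 300 mM, and control plants (CK) received no such salt. CK_1 and S_1 were collected on day 1 and CK_7 and S_7 on day 7, with 3 libraries in each of the 4 groups and 12 in all. The methods describe a stepwise rise to this Na+ concentration, and the days are given as days of salt treatment. The design text calls the libraries of a group biological replicates.

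Proteins of the ERF and DREB branches share a single AP2 DNA-binding domain. The members were taken by description. Their domains were not examined, so some members may belong to another branch. In Arabidopsis, ERF proteins are known for binding GCC-box promoters of defence and ethylene-response genes, and DREB proteins for binding the dehydration-responsive element upstream of genes for cold, drought and salt tolerance. The family holds activators as well as repressors, and many members respond to ethylene, jasmonate, abscisic acid, wounding or low oxygen. The sugar beet genes carry names assigned by similarity, mostly after Arabidopsis proteins, and the roles given below are those of the Arabidopsis namesakes.

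Levels are FPKM, fragment counts scaled for transcript length and for the size of the library. They summed to between 382847 and 423530 per library, and between 23688 and 24234 genes were above 0. Replicate 2 of CK_1 differed from the other CK_1 libraries more than those did from each other. Across the 17146 genes with a mean of at least 1 FPKM, its log2 values correlated with those of the other CK_1 libraries at r = 0.822 and 0.843, against 0.877 between those other libraries. Pairs within S_1, CK_7 and S_7 had r between 0.836 and 0.858. Only 0.822 thus lay below, and 0.877 above, every pair of those groups. This is a description across genes, which are not independent. Genes of photosynthesis that mark shoot tissue summed to between 37.2 and 264 FPKM in the libraries of day 1 and to between 8.91 and 22.7 FPKM in those of day 7. Genes that mark the root endodermis and its formation summed to between 20.01 and 86.8 FPKM in CK_1, S_1 and CK_7 and to between 89.5 and 129 FPKM in S_7. The part of tissue composition in any difference below was not tested, and in whole roots fewer cells of a type and less RNA per cell cannot be told apart.

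The members spanned a wide range of levels. In 17 of the 61 genes no library reached 1 FPKM, a further 17 peaked between 1 and 20 FPKM, and 27 reached 20 FPKM or more in at least 1 library. The sum over members lay between 1524 and 2264 FPKM per library, or from 0.385% to 0.565% of all FPKM, and CK_7 held the lowest as well as the highest share. The 6 genes with the highest mean held 72.2% of the mean total. In order of mean level these were RAP2-4, ERF5, ERF073, ERF098, RAP2-3 and ERF2.

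Only 17 of the 61 members were above 0 in all 12 libraries, and the other 44 were listed at exactly 0 in some. The values of 0 were not limited to weakly expressed genes. Of the 27 members that reached 20 FPKM, 18 (66.7%) were listed at 0 in another library, against 9.02% of the 6009 genes of the table that reached that level. In 17 of the 27 (63.0%, against 7.24% of all such genes) a value of 0 and a value of at least 20 FPKM stood within 1 group of 3 replicates. Most of these members had 1 transcript in the deposited table. Among members with 1 transcript that reached 20 FPKM, 14 of 18 (77.8%) were listed at 0 somewhere, against 15% of 3211 such genes, and among those with several transcripts 4 of 9 (44.4%), against 2.11% of 2798 genes. A value of 0 in these genes is therefore given here only as a listed value, not as absence of the transcript, and the 17 members without any 0 are described apart from the rest.

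**Figure D1:**
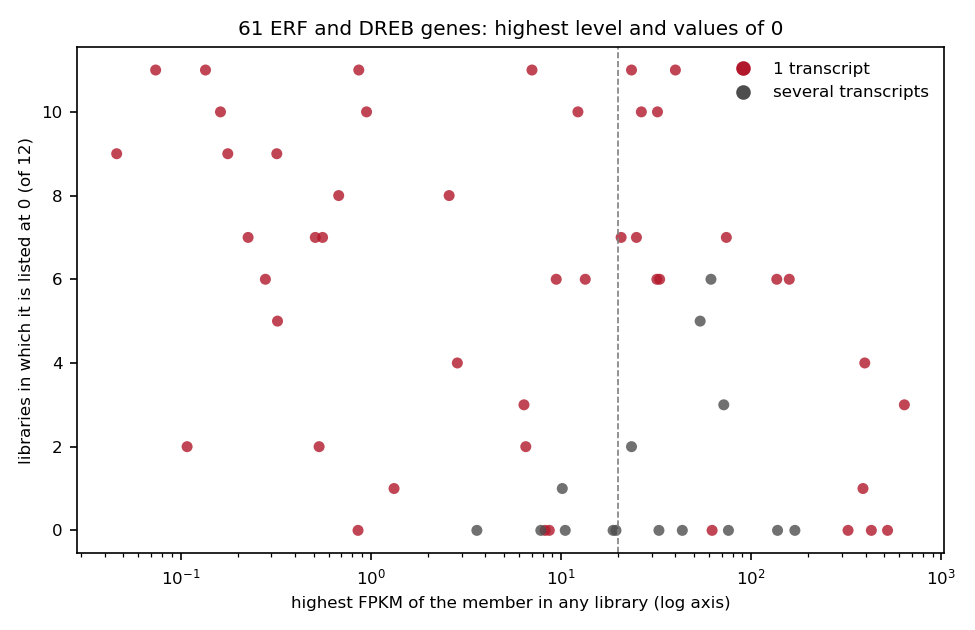
Highest FPKM of each of the 61 members in any library (log axis) against the number of the 12 libraries in which it was listed at 0, with red points for genes with 1 transcript and grey points for those with several. To the right of the dashed line at 20 FPKM lie 27 members, of which 18 were listed at 0 in at least 1 library.

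The first comparison asked which members differed between salt-treated and control roots of the same day. A member was called upregulated or downregulated when its log2 fold change on log2(FPKM + 1) lay beyond 1 and limma's P, before adjustment, was under 0.05, the criteria for a differentially expressed gene. On day 1, 7 of the 55 members tested (12.7%) were called, where 5.99% of all genes tested were called. Of these 7, 6 were upregulated (10.9% of members, 3.44% of all genes) and 1 was downregulated (1.82% of members, 2.55% of all genes). On day 7, 7 of 57 (12.3%) were called, against 5.08% of all genes. Here 5 were upregulated (8.77% of members, 2.7% of all genes) and 2 downregulated (3.51% of members, 2.38% of all genes). These are shares of few genes, and no test was made of them. With limma's adjusted p under 0.05 the counts were 4 members on day 1 and 3 on day 7, where 0.691% and 1.3% of all genes passed. Of the members passing, only ERF114 on day 1 had no value of 0. ERF2, ERF3 and ERF043 on day 1 and ERF3, ERF4 (LOC104900638) and ERF107 on day 7 each had CK or salt listed wholly at 0. The shares of all genes do not set such groups apart. The median log2 fold change over members was 0.01 on day 1 and 0.05 on day 7, beside medians over all genes of 0.00 and 0.02. The groups of CK and salt libraries did not overlap in 9 of 55 members (16.4%) on day 1 and in 12 of 57 (21.1%) on day 7, below the shares of all genes, 21.8% and 26.4%. In all 13 members were called on either day, and 1 of them, ERF3, on both. Without replicate 2 of CK_1 the count on day 1 was 11, of which 4 were downregulated.

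Among the 17 members above 0 in every library, the 3 called on day 1 were upregulated, as were 3 of the 4 called on day 7. The shares given above cover all genes tested. None was taken over all genes above 0 in every library, so these counts stand without such a share. No gene of these 17 was called on both days. ERF073, ERF113 and ERF114 were called on day 1, and RAP2-3, ABR1, ERF115 and the DREB1A-like gene on day 7.

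**Figure D2:**
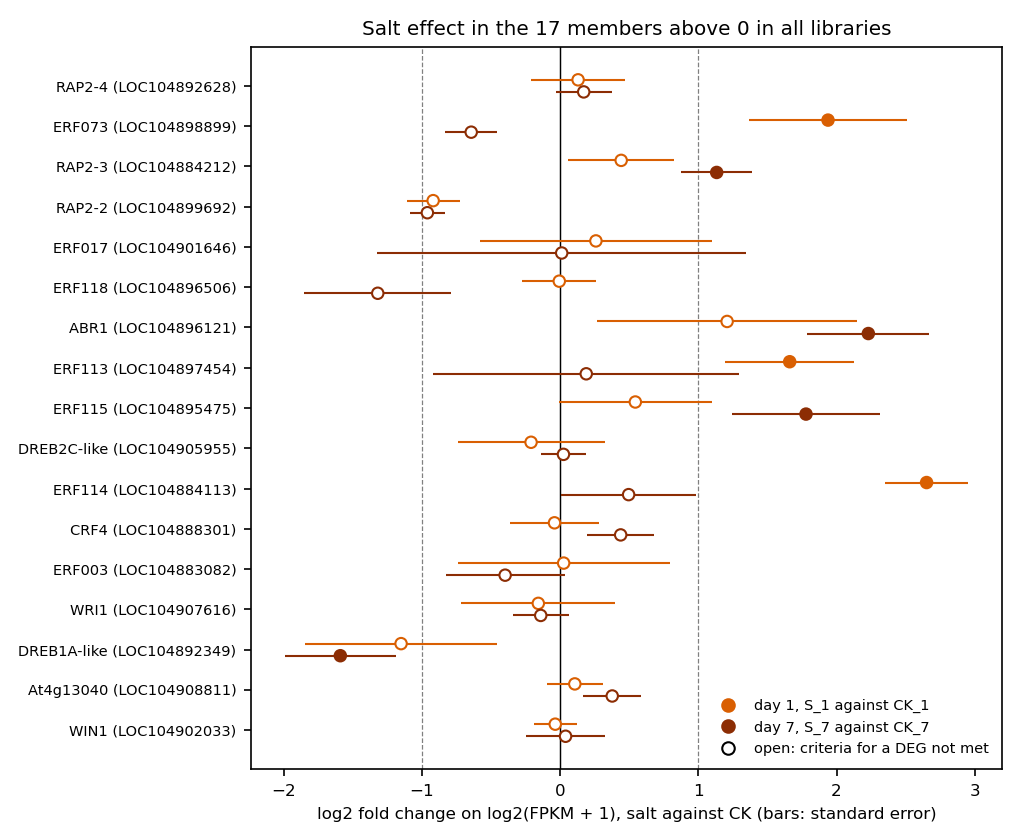
Log2 fold change of salt against CK on log2(FPKM + 1) with its standard error for the 17 members above 0 in all libraries, ordered by mean FPKM, with day 1 in orange and day 7 in brown. Filled points met the criteria for a differentially expressed gene, 3 on day 1 and 4 on day 7, and the dashed lines mark a log2 fold change of 1 in either direction.

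The relatives of the low-oxygen regulators were among the most strongly expressed members and differed from each other in their salt response. ERF073, RAP2-3 and RAP2-2 are named after group VII ERF proteins, which in Arabidopsis are degraded in the presence of oxygen and activate fermentation and other low-oxygen genes when oxygen falls. ERF073 (LOC104898899) was at 155, 40.7 and 133 FPKM in CK_1 and at 322, 290 and 522 FPKM in S_1. On day 7 it was at 256, 260 and 294 FPKM in CK_7 and at 155, 156 and 211 FPKM in S_7. All salt libraries thus lay above all controls on day 1 and below all controls on day 7, and its lowest value came from replicate 2 of CK_1. The mean in S_1 was 3.45 times that in CK_1 (log2 fold change 1.94, SE 0.57, limma adjusted p = 0.197), and without that library the log2 fold change was 1.34. On day 7 the mean in S_7 was 0.644 of that in CK_7 (log2 fold change −0.64, SE 0.19, limma adjusted p = 0.162), which did not meet the fold criterion. The difference between the salt effects of the days was −2.58 on the log2 scale (SE 0.64), with a limma adjusted p of 0.0871, and of 0.0381 without replicate 2 of CK_1.

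RAP2-3 (LOC104884212) was at 104, 179 and 182 FPKM in CK_1 and at 261, 246 and 132 FPKM in S_1, with overlapping groups. It was at 86.7, 120 and 128 FPKM in CK_7 and at 197, 224 and 323 FPKM in S_7, so that every salt library lay above every control. The mean on day 7 was 2.22 times the control (log2 fold change 1.13, SE 0.26, limma adjusted p = 0.105), and it was upregulated by the criteria. Without replicate 1 of CK_7 or replicate 3 of S_7 the log2 fold change was 0.96 or 0.93, under the fold criterion. The endodermis genes given above were also higher in S_7 than in CK_7.

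RAP2-2 (LOC104899692), which was added to the described genes after its values were seen, was lower in salt on both days. It was at 145, 170 and 164 FPKM in CK_1 and at 99.7, 80.1 and 73.5 FPKM in S_1. It stood on day 7 at 111, 121 and 136 FPKM in CK_7 and at 58.3, 61.4 and 68.0 FPKM in S_7. The salt libraries lay below the controls without overlap on either day, with narrow groups. The salt means were 0.529 and 0.509 of the controls (log2 fold changes −0.92, SE 0.19, and −0.96, SE 0.12), and limma's adjusted p was 0.107 on day 1 and 0.0362 on day 7. Neither value reached a log2 fold change of −1, so RAP2-2 was not called. It met the criteria on day 1 without replicate 1 of S_1 (−1.04), and on day 7 after median-ratio scaling (−1.03), without replicate 1 of CK_7 (−1.03) and without replicate 3 of S_7 (−1.02).

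RAP2-4 (LOC104892628), named after a DREB-branch regulator of light, ethylene and drought responses, had the highest mean of all members and showed no call. It was at 278, 399 and 242 FPKM in CK_1 and at 308, 266 and 429 FPKM in S_1, and at 314, 344 and 279 FPKM in CK_7 and at 317, 398 and 342 FPKM in S_7. The groups overlapped on both days, with log2 fold changes of 0.13 (SE 0.34) and 0.17 (SE 0.20).

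**Figure D3:**
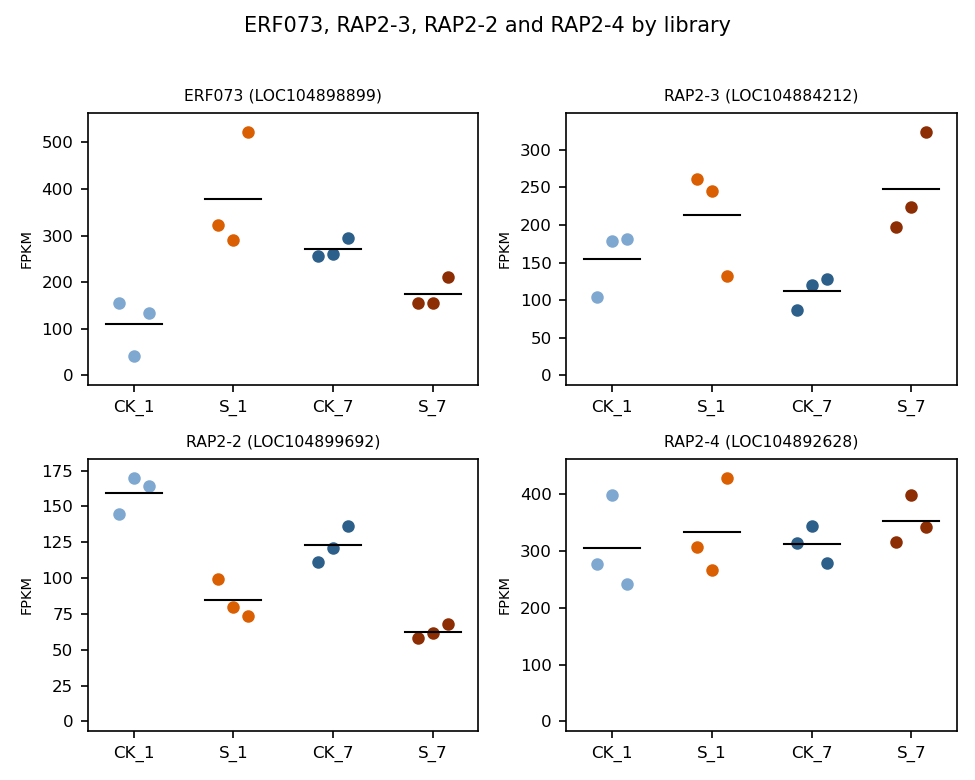
FPKM (linear axis from 0) of ERF073, RAP2-3, RAP2-2 and RAP2-4 in each library of CK_1, S_1, CK_7 and S_7, with a line at the mean of 3 libraries. The points of ERF073 in S_1 start at 290 and lie above CK_1, those of RAP2-2 in S_7 end at 68.0 and lie below CK_7, and those of RAP2-4 overlap in all groups.

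ABR1, ERF113, ERF114 and ERF115 are named after group X ERF proteins of Arabidopsis, which act in wounding, regeneration and abscisic acid responses, and each of these 4 sugar beet genes was upregulated by salt on 1 of the days. ERF109 (LOC104883779), whose namesake belongs to the same group, was called on neither day, with log2 fold changes of 0.01 (SE 0.28) and 0.36 (SE 0.19) and a highest value of 0.678 FPKM. ERF114 (LOC104884113), whose namesake is known for promoting bud outgrowth, was at 1.38, 0.901 and 1.94 FPKM in CK_1 and at 10.1, 18.8 and 14.0 FPKM in S_1. The S_1 libraries all lay far above those of CK_1, with a mean 10.16 times as high (log2 fold change 2.65, SE 0.30, limma adjusted p = 0.0383). On day 7 it was at 1.98, 1.42 and 1.33 FPKM in CK_7 and at 4.58, 0.733 and 3.86 FPKM in S_7. The groups overlapped then through replicate 2 of S_7, which was the lowest of the 6. The log2 fold change was 0.50 (SE 0.49), and 1.02 without that library, which met the criteria.

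ERF113 (LOC104897454), named after RAP2.6L, a protein of shoot regeneration and stress responses, was at 8.11, 4.203 and 12.9 FPKM in CK_1 and at 43.5, 22.8 and 18.7 FPKM in S_1. The groups did not overlap, and the log2 fold change was 1.66 (SE 0.47, limma adjusted p = 0.179). In a fit to all 12 libraries together the same difference had an unadjusted limma P of 0.0985 and was not called. Its day 7 values were 8.86, 3.90 and 9.43 FPKM in CK_7 and 30.9, 0.722 and 12.6 FPKM in S_7, where replicate 2 of S_7 was again the lowest value. The S_7 libraries spanned the whole range of the controls, with a log2 fold change of 0.19 (SE 1.11).

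ABR1 (LOC104896121), whose namesake represses abscisic acid responses, was at 38.5, 3.95 and 60.0 FPKM in CK_1 and at 62.3, 52.1 and 42.8 FPKM in S_1. The groups of day 1 overlapped, and replicate 2 of CK_1 lay far below the other controls. On day 7 it was at 1.87, 1.45 and 1.25 FPKM in CK_7 and at 22.0, 8.16 and 6.74 FPKM in S_7. All salt libraries lay above all controls, with a mean 8.08 times as high (log2 fold change 2.23, SE 0.44, limma adjusted p = 0.0816). The log2 fold change on day 1 was 1.21 (SE 0.94) and was not called, and without replicate 2 of CK_1 it was 0.11.

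ERF115 (LOC104895475), named after a protein that drives division of stem cells in the root tip after damage, was at 18.9, 7.24 and 32.7 FPKM in CK_1 and at 30.02, 30.4 and 16.6 FPKM in S_1. The groups overlapped, with a log2 fold change of 0.54 (SE 0.55). It was at 2.69, 0.166 and 2.64 FPKM in CK_7 and at 11.04, 6.81 and 5.74 FPKM in S_7, again with every salt library above every control. The mean was 4.29 times as high (log2 fold change 1.78, SE 0.53, limma adjusted p = 0.169), and without replicate 1 of S_7 the unadjusted limma P was 0.0581. ABR1 and ERF115 also fell with time, in control as well as in salt-treated roots. CK_7 stood below CK_1 with log2 fold changes of −3.19 (SE 0.95, limma adjusted p = 0.103) for ABR1 and −2.82 (SE 0.69, limma adjusted p = 0.0667) for ERF115. S_7 stood below S_1 with −2.16 (SE 0.44, limma adjusted p = 0.0677) and −1.59 (SE 0.33, limma adjusted p = 0.0688), all downregulated by the criteria. The shoot marker genes were also lower in the libraries of day 7, and their part in these differences was not tested.

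Of the 9 genes described as DREB, 3 had a mean of at least 1 FPKM, and the other 6 peaked at 2.58 FPKM. DREB1 proteins, also known as CBF, drive the cold response in Arabidopsis, and DREB2 proteins act in drought and heat. The DREB1A-like gene (LOC104892349) was at 7.84, 0.497 and 4.63 FPKM in CK_1 and at 1.56, 0.714 and 0.549 FPKM in S_1. Its day 7 values were 4.21, 7.80 and 5.24 FPKM in CK_7 and 0.338, 1.43 and 2.23 FPKM in S_7. The groups overlapped on day 1 only through replicate 2 of CK_1, and on day 7 all salt libraries lay below all controls. It was downregulated on day 7, to 0.231 of the control mean (log2 fold change −1.59, SE 0.40, limma adjusted p = 0.124). On day 1 the log2 fold change was −1.15 (SE 0.69) without a call, and it was −1.90 and called when replicate 2 of CK_1 was left out.

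The DREB2C-like gene (LOC104905955) had the highest mean of the genes described as DREB and was not called in any comparison. It was at 13.5, 10.6 and 15.5 FPKM in CK_1 and at 4.29, 19.5 and 15.6 FPKM in S_1, and at 14.0, 14.2 and 12.1 FPKM in CK_7 and at 11.5, 16.9 and 13.0 FPKM in S_7. The groups overlapped on both days, with log2 fold changes of −0.21 (SE 0.53) and 0.02 (SE 0.16). The DREB1D gene (LOC104906454) was listed at 0 in 10 libraries and stood at 26.5 FPKM in replicate 1 of S_1 and at 1.04 FPKM in replicate 1 of S_7, so its mean rested on 1 library.

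**Figure D4:**
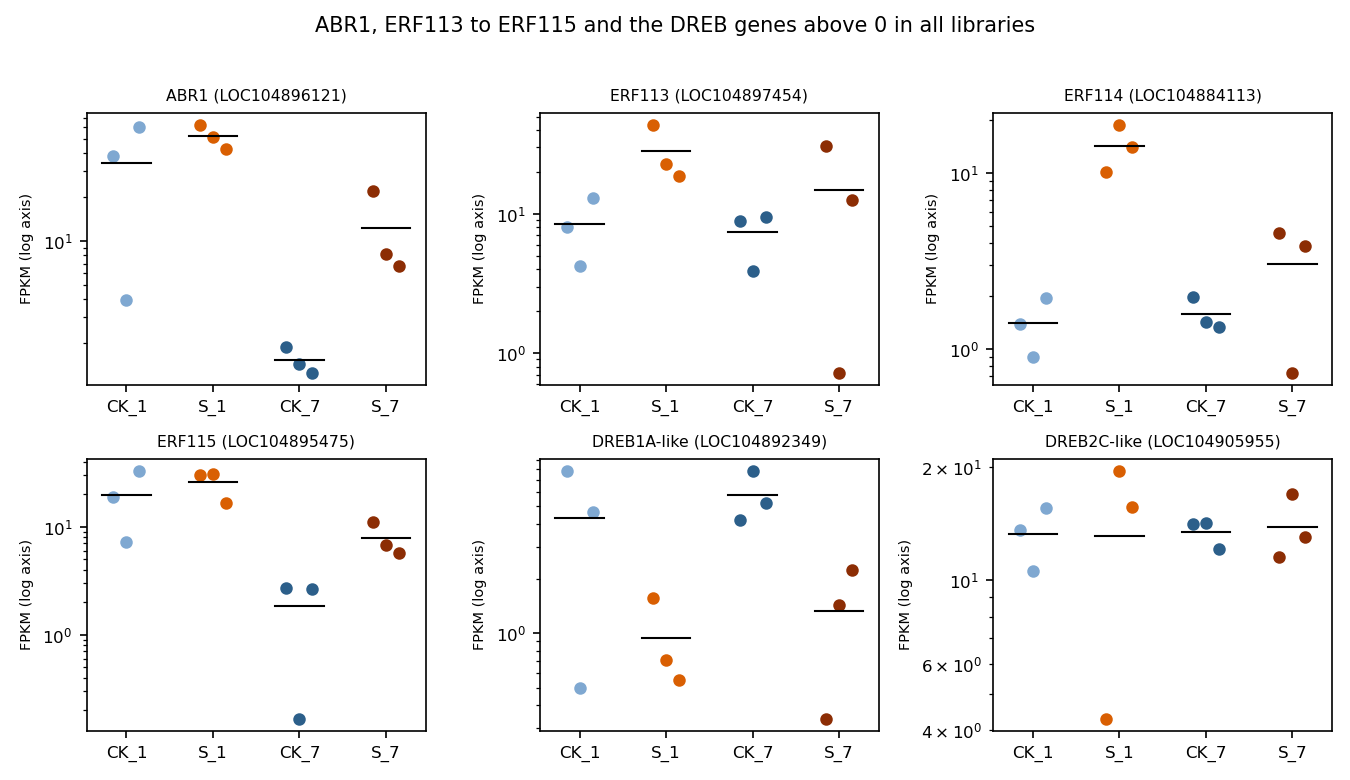
FPKM (log axis) of ABR1, ERF113, ERF114, ERF115 and the DREB1A-like and DREB2C-like genes in each library of the 4 groups, with a line at the mean of 3 libraries. ERF114 rose from at most 1.94 in CK_1 to at least 10.1 in S_1, ABR1 from at most 1.87 in CK_7 to at least 6.74 in S_7, and the DREB1A-like gene fell from at least 4.21 in CK_7 to at most 2.23 in S_7.

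The other 10 of the 17 members without a 0 were called on neither day, RAP2-2, RAP2-4 and the DREB2C-like gene among them. Their log2 fold changes lay between −0.92 and 0.26 on day 1 and between −1.32 and 0.44 on day 7. The lowest belonged to ERF118 (LOC104896506), a relative of the cytokinin response factors, at 76.0, 47.5 and 18.8 FPKM in CK_7 and 14.7, 12.3 and 21.7 FPKM in S_7. These groups overlapped, and the unadjusted limma P was 0.0504. CRF4, a cytokinin response factor, WRI1, whose namesake controls oil synthesis in seeds, and ERF003 stayed at low levels, with highest values of 8.68, 8.25 and 10.5 FPKM, and none met the criteria. ERF017, a DREB-branch gene, ranged from 6.06 to 138 FPKM with wide spread in every group, a WIN1 gene (LOC104902033) stayed under 1 FPKM, and the gene named after At4g13040 peaked at 3.61 FPKM. In 10 of the 17 members, replicate 2 held the lowest CK_1 value.

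Among the 44 members listed at 0 somewhere, 4 were called on day 1, with ERF043 as the downregulated one, and 3 on day 7, with ERF3 as the downregulated one. No share was taken over all genes listed at 0 somewhere, so these counts stand without one. No fold is given against a group that was wholly at 0. Such a group shows no spread between replicates, and this enters limma's p. ERF2 (LOC104892796), named after an activator of ethylene and jasmonate defence genes, was listed at 0 in all 3 CK_1 libraries and stood at 396, 211 and 135 FPKM in S_1 (limma adjusted p = 0.00361). On day 7 it was at 136, 119 and 0 FPKM in CK_7 and at 178, 134 and 167 FPKM in S_7. The groups of day 7 overlapped, since replicate 1 of CK_7 lay just above the lowest salt library, while replicate 3 of CK_7 was listed at 0. The day 7 difference was not called, with an unadjusted limma P of 0.234.

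ERF5 (LOC104892795), another defence activator, is the immediate neighbour of ERF2 in the RefSeq gene order of assembly EL10.2. It was at 352, 575 and 262 FPKM in CK_1 and at 0, 319 and 401 FPKM in S_1. It stood on day 7 at 410, 39.5 and 0 FPKM in CK_7 and at 275, 639 and 0 FPKM in S_7. S_1, CK_7 and S_7 thus each held a 0 beside at least 1 value of 275 FPKM or more, and no comparison of ERF5 was called. Added together, a sum formed after the values were seen, the pair stood at 352, 575 and 262 FPKM in CK_1 and at 396, 529 and 536 FPKM in S_1. In CK_1 this sum was ERF5 alone, and the groups of day 1 overlapped on it, as did those of day 7, with 546, 158 and 0 FPKM in CK_7 and 452, 773 and 167 FPKM in S_7. How reads were shared between such neighbours before deposit was not tested.

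ERF3 (LOC104891730) is named after a repressor with an EAR motif, a short stretch that recruits co-repressors. It was listed at 0 in all libraries of CK_1 and of S_7, and stood at 118, 140 and 138 FPKM in S_1 and at 144, 159 and 153 FPKM in CK_7. The values within each group were close together, and each group was either wholly at 0 or wholly above 100 FPKM. ERF3 was therefore called upregulated by salt on day 1 (limma adjusted p = 0.000194) and downregulated on day 7 (limma adjusted p = 2.42e-05). It was called between the days in both directions too, higher in CK_7 than in CK_1 (limma adjusted p = 6.75e-05) and lower in S_7 than in S_1 (limma adjusted p = 5.72e-05). Among the 6009 genes that reached 20 FPKM, 3 had every group either wholly at 0 or wholly at 20 FPKM or more with both kinds present, and ERF3 was 1 of them.

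ERF4 (LOC104900638), named after another EAR-motif repressor, was at 23.3, 18.3 and 0 FPKM in CK_1 and at 0, 0 and 26.6 FPKM in S_1. It was listed at 0 throughout CK_7 and stood at 136, 36.6 and 34.3 FPKM in S_7. It was upregulated on day 7 (limma adjusted p = 0.0190), while the groups of day 1 overlapped. ERF107 (LOC104890277), named after DEWAX, a repressor of wax synthesis, was at 74.1, 0 and 57.7 FPKM in CK_1 and at 0 in all of S_1 and CK_7. It stood at 14.3, 39.0 and 39.1 FPKM in S_7 and was upregulated on day 7 (limma adjusted p = 0.0150). On day 1 only the 0 in replicate 2 of CK_1 made its groups overlap. The difference was not called, with an unadjusted limma P of 0.0549. Without that library ERF107 was downregulated on day 1 (limma adjusted p = 0.00471).

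ERF054 and ERF043 belong to the DREB branch of the family. ERF054 (LOC104903353) was at 2.35, 6.40 and 0 FPKM in CK_1 and at 44.3, 30.5 and 53.9 FPKM in S_1. Every salt library lay above every control, and it was upregulated on day 1 (log2 fold change 3.88, SE 0.73, limma adjusted p = 0.0902). On day 7 it was listed at 0 in all of CK_7 and stood at 20.8, 0 and 34.5 FPKM in S_7, a difference that was not called. It was called without replicate 2 of S_7 (limma adjusted p = 0.0172) and in the fit to all 12 libraries (limma adjusted p = 0.206). ERF043 (LOC104902271) was at 17.2, 11.7 and 8.05 FPKM in CK_1 and at 0 in all of S_1, and was the 1 member downregulated on day 1 (limma adjusted p = 0.0233). The day 7 values were 31.4, 33.0 and 0 FPKM in CK_7 and 0, 5.11 and 0 FPKM in S_7, with overlapping groups.

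ERF098 (LOC104883763), whose namesake belongs to a group of defence-related ERF proteins, had the fourth highest mean. It was at 361, 129 and 262 FPKM in CK_1 and at 211, 138 and 119 FPKM in S_1, and at 387, 239 and 263 FPKM in CK_7 and at 0, 180 and 121 FPKM in S_7. All S_7 libraries lay below all CK_7 libraries, but the 0 in replicate 1 of S_7 widened the spread, and the unadjusted limma P was 0.156. On day 1 the groups overlapped, and without replicate 2 of CK_1 it was downregulated (log2 fold change −1.02). Of the 18 members that held both a 0 and a value of 20 FPKM or more, 12 were called on neither day. In ERF096-like, ERF12 and CRF6 a single library carried all or most of the signal, at 40.0 FPKM in replicate 3 of S_1, 23.5 FPKM in replicate 2 of CK_7 and 32.2 FPKM in replicate 2 of CK_7. ERF014, ERF1B (LOC104894655), ERF098 (LOC104894654), the other ERF4 gene (LOC104883290), ERF010 and ERF035 each mixed values of 0 with values of 20 FPKM or more, and none was called on either day. The other 26 members with a 0 stayed under 20 FPKM in every library, 16 of them under 1 FPKM. Among them were genes named ERF1B, ERF098, ERF039, RAP2-4, RAP2-11, LEP and WIN1 and 6 of the DREB genes, and none was called between salt and CK on either day.

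**Figure D5:**
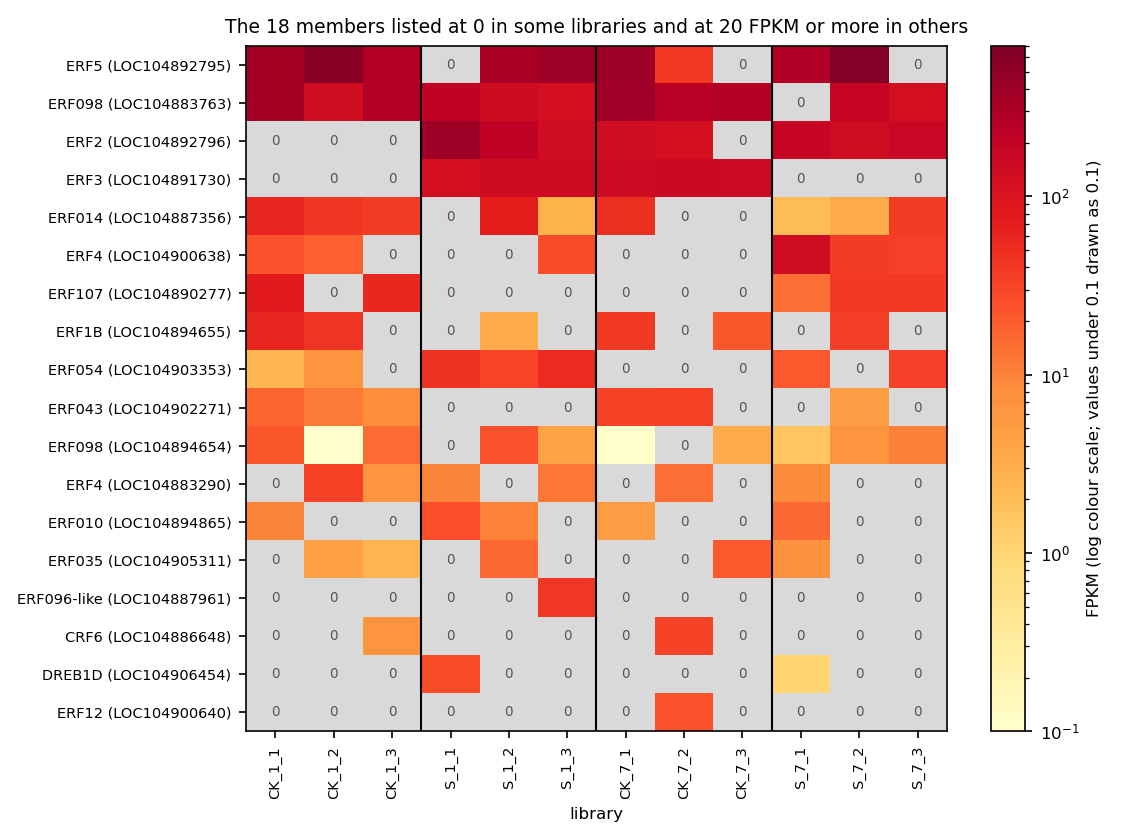
FPKM on a log colour scale in each of the 12 libraries for the 18 members with a 0 in at least 1 library that reached 20 FPKM elsewhere, with grey cells marked 0 and black lines between the groups. ERF3 is coloured in all of S_1 and CK_7 and grey in all of CK_1 and S_7, whereas in 17 of the 18 genes a 0 and a value of at least 20 FPKM stand within 1 group.

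The second set of comparisons followed the members over time. Between CK_7 and CK_1, 4 of 57 members (7.02%) were called, against 10.2% of all genes. The 2 upregulated and the 2 downregulated members each made up 3.51%, against 6.85% and 3.4% of all genes. Between S_7 and S_1, 7 of 55 (12.7%) were called, against 6.78% of all genes. Of these, 2 were upregulated (3.64%, against 4.11% of all genes) and 5 downregulated (9.09%, against 2.66%). ERF073 was higher in CK_7 than in CK_1 (log2 fold change 1.502, SE 0.53, limma adjusted p = 0.146) and lower in S_7 than in S_1 (log2 fold change −1.08, SE 0.30, limma adjusted p = 0.113), and both differences met the criteria. ERF114 was lower in S_7 than in S_1 (log2 fold change −2.05, SE 0.51, limma adjusted p = 0.0911). ERF107 was upregulated from S_1 to S_7 (limma adjusted p = 0.0159). Comparisons that share a group of libraries are not independent of each other.

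The salt effect was tested for a difference between day 7 and day 1 in a fit to all 12 libraries. At an adjusted p under 0.05, 2 of 61 members (3.28%) passed, ERF3 (limma adjusted p = 1.43e-11) and 1 gene named WIN1 (limma adjusted p = 0.0125), where 1.76% of all genes passed. This WIN1 gene (LOC104904567), named after an activator of wax synthesis, was at 0.190, 0.283 and 0.320 FPKM in CK_7 and was listed at 0 in the other 9 libraries, so its difference concerned values far below 1 FPKM. With an unadjusted P under 0.05 and a log2 difference beyond 1, 6 members passed, or 9.84% against 7.21% of all genes. These were ERF073, ERF2, ERF3, ERF4, ERF107 and ERF114. For ERF114 the difference was −2.16 (SE 0.60, limma adjusted p = 0.120). The salt effects of the other members on the 2 days were not shown to differ.

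Members lay close together in the genome in several places. In the gene order of assembly EL10.2, 61 of the 63 gene names carried by the 61 members could be found, and 10 pairs had at most 5 genes between them, with 18 members involved. Beside ERF5 and ERF2 these included DREB2A next to DREB2E, DREB1F next to a DREB1F-like gene, and ERF4 with 1 gene between it and ERF12. Further runs joined ERF1B, ERF098 and ERF096-like, and ERF098, ERF098 and ERF109. The ERF4 neighbour, ERF12 (LOC104900640), was listed at 0 in 11 libraries, and DREB2A, DREB2E and both DREB1F genes peaked at 1.32, 0.108, 0.226 and 0.135 FPKM. How alike these neighbours are in sequence was not tested, and where copies are near-identical, reads that fit both can be assigned to either. The rows of ERF017 and ERF014 each join 2 gene names in the deposited table.

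Genes that act before or after the ERF and DREB proteins were described by counts. Of 42 genes of ethylene synthesis and perception, 8 were called on day 1, of which 5 were upregulated, and on day 7 the 4 that were called were upregulated, with median log2 fold changes of 0.16 and 0.31. Those of day 7 were 3 genes named as homologs of the ethylene-forming enzyme ACC oxidase and 1 joined entry. That entry joins an EIN3-binding F-box gene, whose kind of protein removes the ethylene regulator EIN3, with a hypothetical protein. No gene named plainly as ACC synthase or ACC oxidase, or as a receptor, CTR1 or EIN3-like protein, was called on that day. On day 1 a gene named CTR1 (LOC104888370) was downregulated, with a log2 fold change of −1.41, while another of that name (LOC104898488) was not called (−0.21). Upregulated that day were genes named plainly as ACC oxidase 1 (LOC104884391, 1.48) and ACC oxidase 5 (LOC104893204, 1.05). So was the gene named REVERSION-TO-ETHYLENE SENSITIVITY1 (LOC104884228, 1.14). Other genes named plainly as ACC oxidase were not called. The remaining calls of day 1 were homologs of ACC oxidase, in both directions. Many entries of the list are named as homologs of ACC oxidase, and whether they form ethylene was not tested. Of 25 dehydrins, late embryogenesis abundant, desiccation-related and galactinol synthase genes, kinds that DREB proteins are known to bind in Arabidopsis, 24 were tested on each day. Of these 4 were upregulated on day 1 and 3 on day 7, none was downregulated, and the median log2 fold changes were 0.22 and 0.04. The late embryogenesis abundant genes Dc3 (LOC104904610) and 46 (LOC104889201), with means of 257 and 146 FPKM and log2 fold changes of 5.70 and 5.72 on day 1, were upregulated on both days. Their levels weigh heavily in the sum over the list. The summed level was between 199 and 705 FPKM in CK_1 and between 1068 and 2447 FPKM in S_1, without overlap, and between 330 and 556 FPKM in CK_7 and between 265 and 613 FPKM in S_7, with overlap. Of 64 chitinases, glucanases, defensins and related defence genes, kinds that ERF proteins are known to bind, the 9 called on day 1 comprised 6 upregulated genes and the 11 called on day 7 comprised 2. The 9 downregulated on day 7 were all glucan endo-1,3-beta-glucosidases, which also make up most of this list. Which of these glucosidases act in defence was not tested. Of the 17 AP2-like and RAV genes, the relatives left out by the rule, 1 was upregulated and 1 downregulated on day 1 and none was called on day 7. These counts stand beside the shares of all genes given above, 5.99% and 5.08%, and no test of the lists was made.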

How the data were processed

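Poly(A) RNA of roots was sequenced in pairs of reads by the study. According to its methods and the submitters' processing notes, the authors aligned reads to the NCBI sugar beet genome with HISAT2 (2.0), assembled and quantified transcripts with StringTie (1.3.0) and deposited FPKM per gene, scaled for transcript length and library size. The notes also name Bowtie (0.12.2) and a mouse genome build, whose use they do not explain. The annotation release and strand setting are not given in the sources used here. The deposited fold changes and p-values of the authors' own comparisons were not used. Library depth is not part of the FPKM table, so no counting interval is given.

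Groups were taken from sample titles. FPKM was transformed as log2(FPKM + 1) and tested with limma 3.58.1 (R 4.3.3, with an intensity trend) over all genes above 0 in the libraries compared, 3 against 3, and p-values were adjusted by Benjamini-Hochberg over all genes. Fold changes on this scale understate changes of low genes. An exact two-sided permutation test of 3 against 3 libraries cannot go below p = 0.1 and was not used. The difference between the salt effects came from 1 fit to all 12 libraries. Alternatives were the adjusted p, a pseudocount of 0.1, a mean of at least 1 FPKM, median-ratio scaling, an ordinary linear model, all libraries in 1 fit, a replicate block and leaving out each library. The fitting steps were tested on simulated data. Effects were planted there only in well expressed genes with a small spread within groups. That test therefore does not cover members with a 0 beside high values. Neighbouring genes came from RefSeq's gene table of assembly EL10.2, used for names and order only.

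Values per library are given for members that the study names, members without a 0 that were called on either day, members with a 0 that were called without overlap, the 6 highest, those with an adjusted p under 0.05 for the difference between days, and DREB genes with a mean of at least 1 FPKM. The members and the gene lists were chosen with earlier results of these data known. RAP2-2 and the few other genes given with values were added after their values were seen.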

Additional observations from a re-analysis of the deposited data

Results flagged for a closer look

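The salt effect differed between the days in 2 members, by limma's adjusted p for the difference itself. For ERF3 (LOC104891730) the difference of day 7 minus day 1 was −14.31 on log2(FPKM + 1) (adjusted p = 1.43e-11), with all 6 libraries of S_1 and CK_7 between 118 and 159 FPKM and all 6 of CK_1 and S_7 listed at 0. This size depends on the pseudocount, because groups at 0 enter it, and it is no bound on a fold. Groups listed wholly at 0 show no spread between replicates, and this enters the adjusted p of both genes. For the WIN1 gene LOC104904567 the difference was −0.34 (adjusted p = 0.0125), from 0.190, 0.283 and 0.320 FPKM in CK_7 and 0 in every other library.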

How the results depend on the processing

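With the adjusted p, the members called fell to 4 on day 1, 3 on day 7, 1 between CK_7 and CK_1 and 2 between S_7 and S_1, while those with a differing salt effect were 6 by the unadjusted P. Over all genes, the same step gave 187, 355, 1544 and 552 genes in place of 1621, 1392, 2808 and 1857, and a pseudocount of 0.1 gave 3041, 2704, 4918 and 3703. That pseudocount called 7 members between CK_7 and CK_1. Leaving out 1 library at a time gave 7 to 11 members on day 1, 7 to 10 on day 7, 3 to 8 between CK_7 and CK_1, 7 to 9 between S_7 and S_1 and 2 to 4 for the difference between days. The highest counts came without replicate 2 of CK_1 on day 1 (11), without replicate 3 of CK_1 between the controls (8) and without replicate 2 of CK_1 or replicate 3 of S_1 for the difference (4). The cause was not tested.

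The main fits did not pair libraries by replicate number. Deviations from group means correlated across genes between −0.0938 and 0.102 for same-numbered libraries and between −0.0889 and 0.121 for differently numbered ones. Whether libraries of the same number shared a batch cannot be told from these values and was not tested. With the replicate block 7 members were called on day 1, 8 on day 7, 6 between CK_7 and CK_1, 6 between S_7 and S_1 and 2 for the difference.

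Signs turned only for values that were not called. ERF113 on day 7 was −0.026 with a pseudocount of 0.1 and between −0.72 and 1.39 without single libraries. The DREB2C-like gene on day 7 was −0.044 with median-ratio scaling and between −0.12 and 0.14 without single libraries, and on day 1 between −0.59 and 0.39. Without single libraries, ERF115 on day 1 was between −0.0068 and 1.01, RAP2-4 on day 1 between −0.064 and 0.34 and ERF5 on day 7 between −1.20 and 4.04. With 3 libraries a group and 0 values inside groups, a member whose test was not passed is not shown to be unchanged.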
